A study of Mus musculus with 12 samples.

Results

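NELF, the negative elongation factor, holds RNA polymerase II (RNAPII) shortly after it has begun a transcript, and NELFA is one of its subunits. Release of the held polymerase is followed by the binding of elongation factors, among them Paf1C, a complex of which Ctr9 is a core subunit. RNAPII phosphorylated at serine 5 of its tail (Ser5p) marks initiating and paused polymerase, serine 2 phosphorylation (Ser2p) marks elongating polymerase, and acetylated lysine 27 of histone H3 (H3K27ac) marks active promoters and enhancers. The regions described here are the NELFA peaks of mouse embryonic stem cells (mESCs) that shared not even 1 bp with a Ctr9 peak of the same cell type. The members were selected on the called positions of NELFA and Ctr9 peaks in mESCs and on no other value. They numbered 1126 of 1980 NELFA peaks (56.9%, 95% exact binomial interval 54.7% to 59.1%), and the other 854 NELFA peaks overlapped a Ctr9 peak.

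Both factors were pulled down through GFP with an anti-GFP antibody, Ctr9 from a pool of sorted E14 mESCs carrying a Ctr9-GFP knock-in and NELFA from E14 mESCs with a GFP-tagged NELFA. RNAPII Ser5p was profiled in the NELFA-tagged mESCs, and RNAPII Ser2p and H3K27ac in mESCs. NIH3T3 mouse fibroblasts, a knock-in pool of the same design, gave Ctr9 and H3K27ac lists, and RNA-seq was made in both cell types, with 1 library for each of these measurements and all cells kept in the same medium with LIF. The markers of the cell types matched their labels: Pou5f1 stood at 1402 TPM in mESCs and was listed at 0 in NIH3T3 cells, and Col1a1 stood at 0.203 and 901 TPM. Because each list and each TPM table came from 1 library, nothing below was tested between libraries, and every interval covers counting error only. The study set 1 target number of reads for all samples, but the depth that each ChIP library reached is not given in the sources used here, so a region with no Ctr9 peak is a region where none was called, not one shown to be free of Ctr9.

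Sequences at members of high fold enrichment are shown first, since the strongest peaks fell into a small nuclear RNA (snRNA) class and a protein-coding class. Each runs 5′ to 3′ on the strand of its gene, from 250 bases before the annotated start to 50 bases from it on, in the mouse build GRCm38 (mm10). Capitals mark any match on either strand to 1 of 6 short motifs. The TATA box was searched as TATAAA. The GC box, a site of Sp1 and related factors, was searched as GGGCGG. The octamer, a site of POU factors, was searched as ATGCAAAT. The ETS site was searched as CCGGAAG, and the site of the factor YY1 as AAGATGGCG. The CCAAT box was searched by the letters of its name. Neighbouring matches can share bases. The first 3 are RNA components of the splicing machinery or, for U3, of ribosomal RNA processing, read from the RefSeq genome: a U2 gene (chr11:101645881-101646180, minus strand), a U1 gene (chr12:54696532-54696831, plus strand) and a U3 gene (chr11:87471118-87471417, plus strand).
Gm23971: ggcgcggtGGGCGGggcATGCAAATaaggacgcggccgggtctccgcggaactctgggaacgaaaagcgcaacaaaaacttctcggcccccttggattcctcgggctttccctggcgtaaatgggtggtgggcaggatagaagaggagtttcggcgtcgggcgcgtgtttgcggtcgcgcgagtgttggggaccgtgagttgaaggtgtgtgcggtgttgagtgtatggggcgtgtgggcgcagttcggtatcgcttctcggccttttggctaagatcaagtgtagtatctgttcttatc
Gm22513: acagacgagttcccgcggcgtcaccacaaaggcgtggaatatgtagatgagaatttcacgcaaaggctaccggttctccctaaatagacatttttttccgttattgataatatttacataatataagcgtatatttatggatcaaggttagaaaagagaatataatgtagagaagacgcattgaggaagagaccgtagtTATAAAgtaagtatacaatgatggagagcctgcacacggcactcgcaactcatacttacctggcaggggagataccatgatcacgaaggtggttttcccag
Rnu3b2: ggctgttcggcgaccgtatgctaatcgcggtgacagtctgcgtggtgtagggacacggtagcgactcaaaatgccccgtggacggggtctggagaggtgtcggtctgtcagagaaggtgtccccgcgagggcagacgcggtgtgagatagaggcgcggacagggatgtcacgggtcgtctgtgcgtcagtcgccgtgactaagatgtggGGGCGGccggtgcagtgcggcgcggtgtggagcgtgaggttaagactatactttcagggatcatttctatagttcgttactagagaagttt

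The next 5 are RefSeq promoters of protein-coding genes at members. Csrnp2 (chr15:100495190-100495489, minus strand), a nuclear protein gene, and Sephs2 (chr7:127274010-127274309, minus strand), which makes the selenium donor for selenoprotein synthesis, were among the 12 strongest members at protein-coding starts. Taf4 (chr2:179976597-179976896, minus strand), a subunit of the general factor TFIID, and Ddx54 (chr5:120612880-120613179, plus strand), an RNA helicase, are shown for the YY1 letters, which the promoter of Taf4 holds, and for the ETS letters, which that of Ddx54 holds. Vegfa (chr17:46032328-46032627, minus strand), the main growth factor of blood vessels, was among the genes with the largest TPM difference toward NIH3T3 cells.
Csrnp2: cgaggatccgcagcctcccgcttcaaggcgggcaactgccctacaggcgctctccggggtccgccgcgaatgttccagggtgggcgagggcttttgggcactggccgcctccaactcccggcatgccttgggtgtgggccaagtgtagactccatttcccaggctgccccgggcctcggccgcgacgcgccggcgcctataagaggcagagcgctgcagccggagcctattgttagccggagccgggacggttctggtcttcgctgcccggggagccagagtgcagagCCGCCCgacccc
Sephs2: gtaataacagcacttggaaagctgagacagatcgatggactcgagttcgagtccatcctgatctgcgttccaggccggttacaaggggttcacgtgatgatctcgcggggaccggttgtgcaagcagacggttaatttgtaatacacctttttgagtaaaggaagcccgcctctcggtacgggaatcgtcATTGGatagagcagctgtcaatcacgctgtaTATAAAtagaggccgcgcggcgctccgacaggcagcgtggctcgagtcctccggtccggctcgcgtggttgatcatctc
Taf4: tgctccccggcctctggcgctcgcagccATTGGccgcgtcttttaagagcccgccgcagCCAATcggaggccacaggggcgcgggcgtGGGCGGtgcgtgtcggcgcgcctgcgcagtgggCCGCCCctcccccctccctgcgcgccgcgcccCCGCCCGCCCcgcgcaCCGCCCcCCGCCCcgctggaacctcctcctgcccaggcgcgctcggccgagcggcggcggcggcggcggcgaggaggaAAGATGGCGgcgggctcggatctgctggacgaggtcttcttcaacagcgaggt
Ddx54: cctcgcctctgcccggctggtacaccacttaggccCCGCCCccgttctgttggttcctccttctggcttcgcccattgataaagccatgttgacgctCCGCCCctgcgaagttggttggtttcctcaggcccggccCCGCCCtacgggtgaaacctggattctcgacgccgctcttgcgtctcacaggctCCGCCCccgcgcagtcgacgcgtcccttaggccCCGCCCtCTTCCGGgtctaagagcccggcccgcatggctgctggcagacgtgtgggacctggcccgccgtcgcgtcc
Vegfa: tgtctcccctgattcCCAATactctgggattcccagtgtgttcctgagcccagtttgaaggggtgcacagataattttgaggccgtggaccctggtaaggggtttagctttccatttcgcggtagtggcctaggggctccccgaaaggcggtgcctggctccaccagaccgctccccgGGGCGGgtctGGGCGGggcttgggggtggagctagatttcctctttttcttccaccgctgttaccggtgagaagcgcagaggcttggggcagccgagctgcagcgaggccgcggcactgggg

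The members were mostly promoter peaks. Of the 1126 summits, 980 (87.0%, 84.9% to 88.9%) lay no more than 1000 bp from where a protein-coding gene begins, against 76.2% of all NELFA peaks and 61.9% (58.6% to 65.2%) of those with Ctr9. A further 68 lay at another start of a protein-coding gene, and 26 at the start of a gene of another type, 11 of them annotated as snRNA and 7 as lincRNA. Gene ends held 2 members, the rest of gene bodies 18, and 32 (2.84%, 1.95% to 3.99%) lay elsewhere. Among NELFA peaks with Ctr9, the share elsewhere was 14.1% (11.8% to 16.6%). Where a member lay at a protein-coding start, its summit was a median of 35 bp downstream of the start (27 to 43, quartiles -78.3 and 111), and 491 of the 980 summits were within 100 bp of it. The corresponding median with Ctr9 was 59 bp (49 to 71). Starts on both strands lay within 1000 bp of 198 of these 980 summits (20.2%, 17.7% to 22.9%) and of 11.9% (9.27% to 15.0%) with Ctr9.

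**Figure D1:**
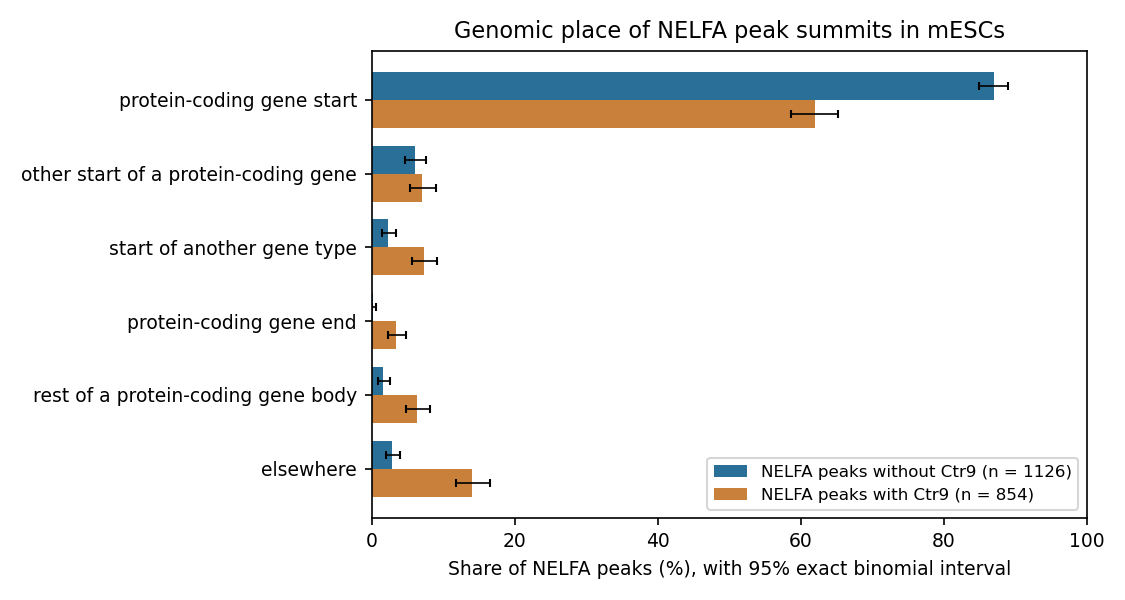
Share of NELFA summits in each genomic place (x axis, %), for the 1126 NELFA peaks without Ctr9 and the 854 with Ctr9; bars are shares and whiskers 95% exact binomial intervals. Protein-coding gene starts held 87.0% of the peaks without Ctr9 and 61.9% of those with it. The class elsewhere, which can include bodies of genes that are not protein-coding, held 2.84% and 14.1%.

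Base composition around the summits was described over windows of 100 bp on each side. The median GC content was 65.7% (quartiles 60.7% and 70.6%) without Ctr9 and 61.2% (52.2% and 67.2%) with it, and 58.7% around all protein-coding starts. At protein-coding starts alone the medians were 66.7% and 64.2%. The GC box letters were in 53.9% (50.9% to 56.8%) of the windows without Ctr9, in 38.9% (35.6% to 42.2%) with Ctr9 and in 40.02% of the windows at all protein-coding starts. The ETS letters, bound by a family of transcription factors at housekeeping promoters, were in 17.1% (14.9% to 19.4%), 10.4% (8.45% to 12.7%) and 9.60%. The YY1 letters, recognised by a zinc finger factor of the same name, were in 69 of 1125 windows (6.13%, 4.80% to 7.70%), in 3.04% (2.00% to 4.43%) with Ctr9 and in 1.81% at all starts. The CCAAT letters were in 23.0% (20.6% to 25.6%), 24.0% (21.2% to 27.01%) and 28.2%, and the octamer letters in 0.444%, 0.820% and 0.880%. The TATA letters went the other way, at 5.42% (4.17% to 6.91%), 11.5% (9.42% to 13.8%) and 8.08%. Within 1000 bp of a protein-coding start, these shares without and with Ctr9 were 56.4% and 50.3% for the GC box, 17.7% and 12.7% for ETS, 6.43% and 4.35% for YY1, and 4.69% and 10.6% for TATA. The intervals overlapped for the GC box (53.3% to 59.6% against 45.9% to 54.6%), for ETS (15.3% to 20.2% against 9.95% to 15.8%) and for YY1 (4.97% to 8.15% against 2.78% to 6.45%). They did not overlap for TATA (3.46% to 6.21% against 8.10% to 13.5%). The shares were not tested, and overlapping intervals do not show that shares are equal. Of the 1177 genes at members, 958 had a RefSeq promoter sequence, and these were set against all 27026 RefSeq promoters. The ETS letters were in 25.8% of the promoters at members against 9.12% of all, the GC box in 71.0% against 35.9%, the YY1 letters in 5.85% against 1.49%, the octamer in 0.835% against 1.75% and the TATA letters in 7.31% against 14.2%. The CCAAT letters were in 42.0% (38.8% to 45.2%) against 37.9%. These contrasts depend on the background. From 250 bases before to 50 bases after the starts of all protein-coding genes, the CCAAT letters were in 39.0%, inside the interval at members. The GC box was in 43.0% there, above its share of all RefSeq promoters. Promoters of genes at NELFA peaks with Ctr9 were not compared in this way. A match of letters is a description of the sequence, not of a factor's binding.

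By NELFA fold enrichment, the height of the peak over the input as the peak caller gave it, the members had a median of 4.83 (4.77 to 4.91, quartiles 4.15 and 5.76) and reached from 1.91 to 24.0. NELFA peaks with Ctr9 had a median of 5.28 (5.08 to 5.46). The medians were close, and the upper tails differed more: a fold of at least 10 was reached by 23 members (2.04%, 1.30% to 3.05%) and by 113 peaks with Ctr9 (13.2%, 11.0% to 15.7%). Members were a median of 297 bp wide (290 to 304), against 369.5 bp (360 to 384). In the strongest 20% of all NELFA peaks by fold, from 6.59 upward, 145 of 396 were without Ctr9 (36.6%, 31.9% to 41.6%), and in the other 4 groups of 20% the share ran from 59.3% to 64.9%.

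The 5 strongest members lay at snRNA genes. RefSeq annotates 997 genes of this class, and a member summit lay within 300 bp of the start of 13 of them, with 4 U1, 4 U2, 3 U5 and 2 U3 genes. These 13 peaks had NELFA folds from 5.19 to 24.0 with a median of 13.1. The 20 snRNA genes at NELFA peaks with Ctr9 had folds from 10.1 to 26.2 with a median of 18.2, and included the minor spliceosome genes U11 and U12 and U7, which processes histone pre-mRNA. None of the 728 U6 genes, which RNA polymerase III transcribes, had a NELFA summit at its start in either set. All 20 snRNA peaks with Ctr9 overlapped a RNAPII Ser5p peak, with Ser5p folds from 12.6 to 35.9, and all 20 overlapped H3K27ac. The 13 members also all overlapped a Ser5p peak, with Ser5p folds from 8.46 to 30.1, and 8 of the 13 overlapped H3K27ac.

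Among these, the U3 gene Rnu3b2 had the highest NELFA fold of all members, 24.0 at chr11:87471189-87471793, with a Ser5p fold of 30.1 and an H3K27ac fold of 18.1. Its nearest Ctr9 peak was 8276 bp away. The U2 gene Gm23971 followed with a NELFA fold of 17.1 (chr11:101645107-101646046, Ser5p 21.8, nearest Ctr9 2696 bp). The other U3 member, Rnu3b3, stood at 15.6, the U5 gene Gm23143 at 15.3, the U1 gene Gm22513 at 13.2, and the U5 gene Gm22265 at 13.1 with no H3K27ac peak. The weakest was the U2 gene Gm25813, with a NELFA fold of 5.19 and its nearest Ctr9 peak 2183776 bp away. The summits of the 13 lay from 62 to 217 bp downstream of the RNA start, inside or just past the RNA.

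Some of these genes have near-identical copies, between which reads may not be told apart, and whether this put a copy in or out of the members was not tested. Rnu3b2 and Rnu3b3 differ in 0 bases, both in the RNA and in the 250 bases before it, from Rnu3b1, whose NELFA peak (fold 12.1) overlapped Ctr9. Gm23971 differs in 0 bases of the RNA and 6 of the 250 bases upstream from Gm24950, which also had NELFA with Ctr9 (fold 16.1). For the 3 U5 members the closest copies with a NELFA peak differed in 6 to 9 bases of the RNA and 98 to 115 of the 250 upstream. For the 4 U1 members they differed in 1 to 6 bases of the RNA and 121 to 130 upstream, and for the other 3 U2 members in 0 to 2 and 79 to 138, so that near identity reached upstream of the RNA at 3 of the 13. The octamer letters, part of the distal control element of snRNA genes, were in the 300 bases around the start of 4 of the 13 genes (30.8%, 9.09% to 61.4%), in 14 of the 20 with Ctr9 (70.0%, 45.7% to 88.1%), in 5.22% of all 997 snRNA genes and in 1.57% of protein-coding genes.

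**Figure D2:**
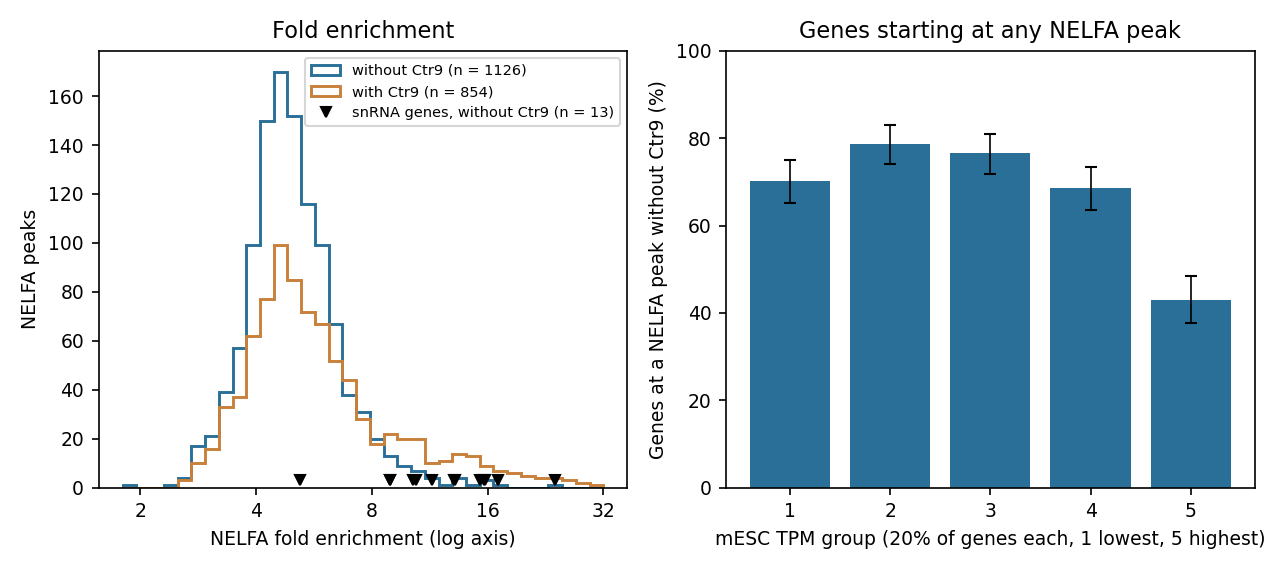
Left, number of NELFA peaks by NELFA fold enrichment (log axis) for the sets without and with Ctr9, with triangles at the folds of the 13 members at snRNA genes. Right, among protein-coding genes starting at any NELFA peak, the share at a peak without Ctr9 in each of 5 groups of 20% by mESC TPM, with 95% exact binomial intervals; the share is 43.0% in the highest group and 68.7% to 78.7% in the other 4.

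Among the strongest members at protein-coding starts, Fam53c had a NELFA fold of 13.9, Csrnp2 of 13.6 and Sephs2 of 11.7. Csrnp2 stood at 4.67 TPM in mESCs and Sephs2 at 127, so peaks of like height lay at genes of very different RNA level. Tnrc6c, a partner of Argonaute in gene silencing by small RNAs, had a NELFA fold of 11.6 and 9.81 TPM. Gm49342 and Mphosph9 stood at 11.3 and 10.9. The peak at the first annotated start of nonagouti (symbol a), a coat colour gene, had a fold of 10.7 with 0 TPM listed in both cell types. The RefSeq promoter of nonagouti lies elsewhere, at chr2:155013320-155013619. Arid5a, an RNA-binding regulator of inflammatory transcripts, had a fold of 10.4 with neither a Ser5p nor an H3K27ac peak in mESCs. Tti2 and Dnajb9 followed with 10.3 and 10.2. The summit at Tti2 lay 504 bp upstream of its start and 147 bp downstream of the start of the small nucleolar RNA gene Snord13, and its Ser5p fold of 18.7 was the highest among members at protein-coding starts. Dnajb9 is a chaperone of the endoplasmic reticulum.

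Away from protein-coding starts and snRNA genes, the strongest members were a peak 1068 bp from the start of Agbl5, with a fold of 12.5, and one at an internal start of Ctnnb1, the gene of beta-catenin, with 9.68. A member also lay at Terc, the RNA template of telomerase, with a fold of 4.24 and a Ctr9 peak 82 bp away. At the tRNA gene n-TVcac9 a member of fold 5.21 had its summit 283 bp from the tRNA start. A summit of fold 4.49 lay 279 bp from the start of another tRNA gene, n-TMcat11, but only 84 bp from that of the protein-coding gene Ilf2.

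Distance to Ctr9 followed from how the members were chosen and is given as a description. The nearest Ctr9 peak was a median of 6412 bp away, edge to edge (5603 to 7281), with quartiles of 1105 and 19582 bp and a range of 1 to 2385309 bp. A Ctr9 peak lay within 500 bp of 191 members (17.0%), from 500 to 1000 bp of 77, from 1000 to 5000 bp of 236, from 5000 to 20000 bp of 345, from 20000 to 100000 bp of 228 and farther from 49. The NELFA fold changed little across these distances, with medians from 4.69 to 5.13. At protein-coding starts the nearest Ctr9 peak lay on the downstream side, in the direction of transcription, for 662 of 980 members (67.6%, 64.5% to 70.5%).

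The boundary of the set was narrow. The 3 members closest to Ctr9 were Fam53c, with 1 bp between the peaks, Sptan1, a spectrin of the membrane skeleton, with 2 bp, and Ctsl, a lysosomal protease, with 9 bp. Their NELFA folds were 13.9, 6.75 and 9.58. Just outside, the NELFA peaks near Spry4 and at a start of Ldha overlapped Ctr9 by 1 bp, with folds of 5.09 and 2.98, and the one at Slc7a5 by 3 bp, with 7.89. In all, 25 members lay less than 50 bp from a Ctr9 peak and 47 peaks with Ctr9 overlapped it by at most 50 bp. The members farthest from Ctr9 lay at Gbe1, the glycogen branching enzyme (2385309 bp, fold 5.39), at the U2 gene Gm25813, and at Tmtc3 (1217261 bp, fold 5.69).

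**Figure D3:**
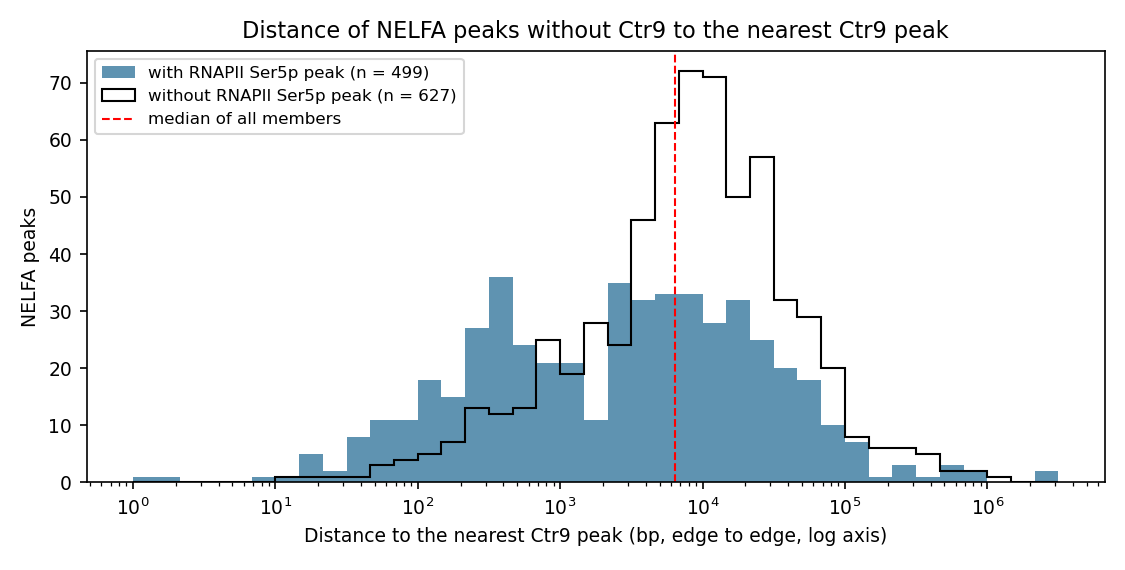
Histogram of the distance from each of the 1126 NELFA peaks without Ctr9 to the nearest Ctr9 peak (x axis, bp, log scale; y axis, peaks), for the 499 with and the 627 without a RNAPII Ser5p peak; the dashed line marks the median of 6412 bp. Members with Ser5p make up 74.9% of those under 500 bp, 31.9% of those from 5000 to 20000 bp and 36.8% of those from 20000 to 100000 bp.

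RNAPII Ser5p peaks overlapped 499 of the members (44.3%, 41.4% to 47.3%), against 65% of all NELFA peaks and 92.3% (90.3% to 94.0%) of those with Ctr9. The rule bears on this difference too, because 77.1% of all Ser5p peaks overlapped Ctr9, against 23.1% of all H3K27ac peaks. The shares without and with Ctr9 were 42.7% and 90.4% at protein-coding starts alone, and 46.8% and 92.9% among NELFA peaks with a −log10 q of at least 5. Where a Ser5p peak was present, its summit lay a median of 57 bp from the NELFA summit (quartiles 26 and 126) and its fold had a median of 4.69 (4.55 to 4.78). With Ctr9 the Ser5p fold had a median of 7.76 (7.34 to 8.22). The share of members with Ser5p was 74.9% (68.1% to 80.9%) where Ctr9 lay within 500 bp, 50.6% (39.0% to 62.2%) from 500 to 1000 bp, 44.1% (37.6% to 50.7%) from 1000 to 5000 bp and 31.9% (26.996% to 37.1%) from 5000 to 20000 bp. Farther out it did not go on falling, at 36.8% (30.6% to 43.5%) from 20000 to 100000 bp and 38.8% (25.2% to 53.8%) beyond that. It was 70.3% (62.2% to 77.6%) among members in the strongest 20% by NELFA fold and 36.2% (30.0% to 42.7%) in the weakest 20%. The members with the highest Ser5p folds were Rnu3b2 (30.1), Gm22513 (29.0), Rnu3b3 (22.7) and Gm23971 (21.8). At protein-coding starts, Ser5p folds were high at Tti2, at Rps7 (10.7), a ribosomal protein gene, and at Slc2a1 (9.68), the main glucose transporter.

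RNAPII Ser2p overlapped 0 of 1126 members, which allows a share of up to 0.266% by a limit of 3 counts of the total and of 0.327% by the exact interval, against 10.1% of all NELFA peaks and 23.3% (20.5% to 26.3%) of those with Ctr9. The rule bears on this count, because 1672 of the 1675 Ser2p peaks (99.8%) overlapped Ctr9, so that a NELFA peak without Ctr9 could hardly meet one. The Ser2p peak nearest to any member was 252 bp away. In the whole region of the gene, 1 kb upstream to 5 kb past the end, a Ser2p peak was found at 147 of the 1177 protein-coding genes starting at members (12.5%, 10.7% to 14.5%), at 58.7% (54.6% to 62.7%) of those at NELFA peaks with Ctr9 and at 7.01% of all protein-coding genes.

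H3K27ac peaks overlapped 947 members (84.1%, 81.8% to 86.2%), the same share as for all NELFA peaks, 84.1%, and for those with Ctr9, 84.2% (81.6% to 86.6%). At protein-coding starts alone the shares were 85.9% and 90.5%. The H3K27ac fold at members had a median of 6.33 (6.11 to 6.56), against 5.94 (5.70 to 6.11) with Ctr9. The combination of H3K27ac without Ser5p held 516 members (45.8%, 42.9% to 48.8%) and 6.56% (4.99% to 8.43%) of the peaks with Ctr9. Both marks were at 431 members (38.3%), against 55.3% of all NELFA peaks and 77.6% of those with Ctr9. Ser5p alone was at 68 (6.04%, against 9.75% and 14.6%), and neither mark at 111 (9.86%, against 6.11% and 1.17%). Besides the snRNA genes Rnu3b2, Gm23444, Rnu3b3 and Gm22513, with H3K27ac folds from 16.3 to 18.1, the members at protein-coding starts with the highest H3K27ac folds were Gm20422 (16.3), Ddx59 (15.96), Armc5 (15.9) and Upf3a (15.0), the last a factor of nonsense-mediated decay.

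In NIH3T3 cells, H3K27ac covered 1020 of the same places (90.6%, 88.7% to 92.2%), against 83.3% of all NELFA peaks and 73.7% (70.6% to 76.6%) of those with Ctr9. At protein-coding starts alone these shares were 95% and 92.4%. H3K27ac in both cell types was at 896 members (79.6%), against 74.2% of all NELFA peaks and 67.2% of those with Ctr9. In mESCs alone it was at 51 (4.53%, against 9.90% and 17.0%). In NIH3T3 cells alone it was at 124 (11.0%, against 9.04% and 6.44%). The NIH3T3 Ctr9 list overlapped 238 members (21.1%, 18.8% to 23.6%), against 38% of all NELFA peaks and 60.2% (56.8% to 63.5%) of the peaks with Ctr9 in mESCs. None of the 5 other lists touched 34 members (3.02%, 2.10% to 4.19%), against 1.92% of all NELFA peaks and 0.468% of those with Ctr9.

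**Figure D4:**
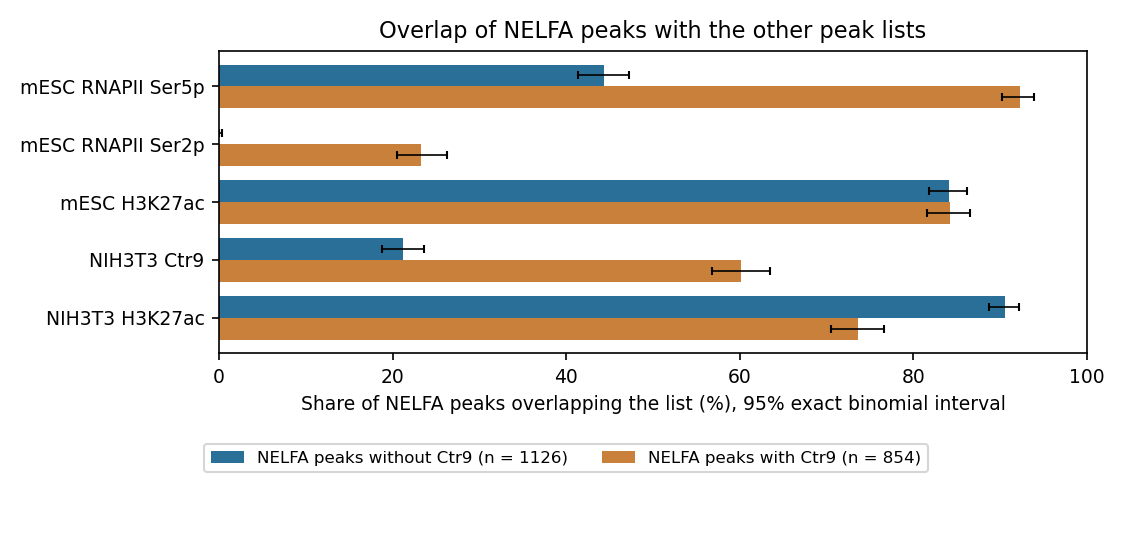
Share of NELFA peaks (x axis, %) that overlap each of the 5 other peak lists by at least 1 bp, for the 1126 peaks without and the 854 with Ctr9; whiskers are 95% exact binomial intervals. RNAPII Ser5p is at 44.3% and 92.3%, and mESC H3K27ac at 84.1% and 84.2%; of all peaks in these lists, 77.1% and 23.1% overlap Ctr9.

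Protein-coding genes starting at members numbered 1177, of which 1175 had a TPM, and 12 also started at a NELFA peak with Ctr9. Their median was 23.8 TPM in mESCs (21.5 to 26.2, quartiles 9.79 and 60.0) and 18.3 in NIH3T3 cells (16.4 to 20.5), taking the highest transcript of each gene. Summing TPM over transcripts gave a mESC median of 39.1. Genes at NELFA peaks with Ctr9 had a median of 49.9 TPM in mESCs (41.4 to 61.5), and all 21918 protein-coding genes with a value 1.25. In the highest 25% of expressed genes, from 21.7 TPM, fell 619 of the genes at members (52.7%, 49.8% to 55.6%), against 18.4% of all protein-coding genes. A TPM of 0 was listed in mESCs for 9. Among genes at any NELFA peak, the share at a peak without Ctr9 was 43.0% (37.7% to 48.4%) in the highest 20% by mESC TPM, from 100.9 TPM upward, and 68.7% to 78.7% in the other 4 groups of 20%. Genes at members with Ser5p had a median of 30.4 TPM (26.4 to 35.1) and those at members without it 19.9 (17.9 to 22.7).

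Few of these genes lacked a Ctr9 peak along their whole length. A Ctr9 peak was found somewhere from 1 kb upstream to 5 kb past the end of 1030 of the 1177 (87.5%, 85.5% to 89.3%), against 44.1% of all protein-coding genes. In these 1030 genes, the midpoint of a Ctr9 peak lay in the 5 kb past the end of 905 (87.9%, 85.7% to 89.8%), in the part of the body nearer the end of 705 (68.4%), in the part nearer the start of 462 (44.9%) and upstream of 82 (7.96%). Among all 9679 protein-coding genes with Ctr9, the shares in this order were 79.0%, 60.2%, 37.9% and 12.9%. Among genes at NELFA peaks with Ctr9 they were 80.2%, 64.9%, 61.6% and 40.8%. The sets were not matched for gene length, with medians of 22370 bp for genes at members and 9033.5 bp for genes at NELFA peaks with Ctr9. The rule bears on the parts next to the start, because a member by definition had no Ctr9 peak over it. The 147 genes with no Ctr9 peak in this region had a median of 6.77 TPM in mESCs, against 28.5 for the others, and a median length of 28715 bp, against 21845 bp. In NIH3T3 cells the gene region held Ctr9 at 653 of the genes (55.5%, 52.6% to 58.3%), against 25.8% of all.

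Between the cell types the median log2 ratio of mESC to NIH3T3 TPM, with 1 added to each, was 0.28 (0.22 to 0.36), and 841 genes (71.6%, 68.9% to 74.1%) were within 2-fold, no more than the 75.2% of all protein-coding genes, which include genes at or near 0 in both. A ratio of 4-fold or more toward mESCs was seen at 64 genes (5.45%, 4.22% to 6.90%), against 5.34% of all. Toward NIH3T3 cells it was seen at 14 (1.19%, 0.653% to 1.99%), against 4.98%. Genes at NELFA peaks with Ctr9 had 11.0% (8.60% to 13.9%) toward mESCs and 1.55% (0.712% to 2.93%) toward NIH3T3 cells. Of those, 69.5% were within 2-fold, and their median log2 ratio was 0.32 (0.23 to 0.40). The low share toward NIH3T3 cells was thus seen in both sets, and the share toward mESCs was lower at members. Of the 64 genes at members, 56 had a Ctr9 peak in the gene region in mESCs and 13 in NIH3T3 cells, where the shares among all genes at members were 87.5% and 55.5%. Of the 14, 7 had one in mESCs and 14 in NIH3T3 cells.

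Toward mESCs the largest ratios were at Trh, the precursor of thyrotropin-releasing hormone (432 TPM, listed at 0 in NIH3T3 cells), Ckb, brain creatine kinase (142 and 0), Spint2, a protease inhibitor (145 and 0.110), Epop, a partner of Polycomb repressive complex 2 (263 and 1.04), and Epcam, an epithelial adhesion protein (125 and 0). All 5 had Ctr9 nearby, at 41, 719, 1001, 63 and 174 bp. Toward NIH3T3 cells they were at Ier3, an early stress response gene (3.16 and 105 TPM, log2 ratio -4.67), Jun, a subunit of AP-1 (3.25 and 55.2, -3.73), Sned1 (5.95 and 54.7, -3.00), Vegfa (7.60 and 52.7, -2.64) and Kctd10 (14.5 and 94.9, -2.63). Jun lay 110448 bp from the nearest mESC Ctr9 peak, and its member peak overlapped a NIH3T3 Ctr9 peak of fold 33.3, the highest NIH3T3 Ctr9 fold over any member. Vegfa had a NELFA fold of 9.58, and its peak met neither Ser5p nor H3K27ac in mESCs.

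The highest mESC levels were at Rps27a (2812 TPM), Rpl26 (2238), Rpl35 (1551) and Rpl35a (1182), which make ribosomal proteins, at Sod1, superoxide dismutase (1229), and at Ybx1, a nucleic acid binding protein (974). Each had a Ctr9 peak within 49 to 533 bp of its member, and Rps27a also started at a NELFA peak with Ctr9. Reads of ribosomal protein genes can be shared with processed pseudogenes, which leaves their levels uncertain. At 0 TPM in mESCs, the strongest members were at nonagouti, Gm10518 (fold 8.997), Gm26558 (7.92), Fam227b (6.998) and Gm49527 (6.20), and all 5 overlapped an H3K27ac peak. A peak can lie at several gene starts, so a 0 does not show that the place was silent. The Gm49527 peak also lay at the start of Zfp7, at 26.0 TPM in mESCs. The nonagouti peak (chr2:154791148-154791606) was not at that gene's RefSeq promoter (chr2:155013320-155013619).

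**Figure D5:**
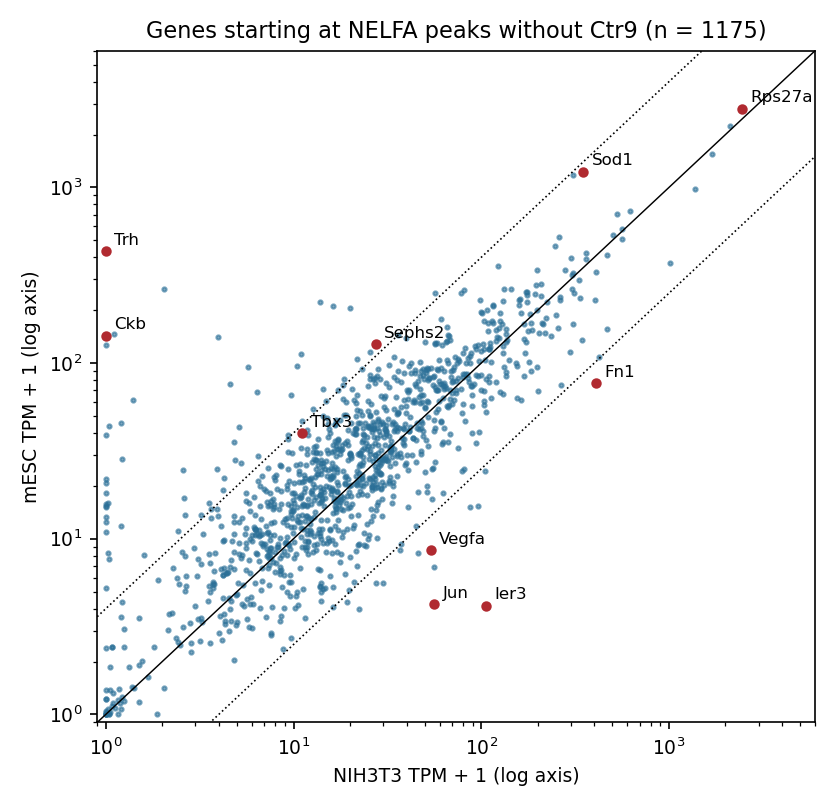
TPM + 1 in mESCs (y) against NIH3T3 cells (x), both log axes, for the 1175 protein-coding genes starting at NELFA peaks without Ctr9; the solid line marks equality, the dotted lines 4-fold, and red points are named genes. Trh and Ckb lie far above the upper line and Ier3 and Jun below the lower one, while 841 genes are within 2-fold.

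By function, members lay at 5.36% of all protein-coding genes, and the lists compare with that share without a test. That share varied with RNA level. Members lay at 619 of the 4043 genes in the highest 25% of expressed genes by mESC TPM. In the lowest 25% they lay at 22 of 4043. The heat shock and respiratory chain lists had medians of 219 and 124 TPM, against 1.25 for all genes, and no list was matched for level. Heat shock and chaperone genes had the highest share, 10 of 35 (28.6%), with 6 more at NELFA peaks with Ctr9. They included 5 subunits of the cytosolic chaperonin CCT, from Cct7 at 223 to Cct3 at 390 TPM in mESCs, and the stress genes Hspa1b (5.62 TPM) and Dnajb1 (33.2), the regulator Hsf1 (18.4), and Hsp90b1, which stood at 371 TPM in mESCs and 1007 in NIH3T3 cells. Of 24 genes of pausing and elongation factors, 5 were at members (20.8%): Nelfa itself (35.8 TPM), Supt5 (69.9), which forms DSIF, Paf1 (37.7), which gives Paf1C its name, Cdk13 (19.2) and Polr2a (78.5), the largest subunit of RNAPII. A NELFA peak with Ctr9 was also present at Polr2a.

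Immediate early genes, which respond to growth signals within minutes, split between the sets, with 6 of 29 at members and 8 at peaks with Ctr9. The 6 were Myc (12.5 TPM in mESCs and 25.4 in NIH3T3 cells), Btg2 (11.9 and 11.4), Dusp5 (7.58 and 35.7), Jun, Ier3 and Fos (2.73 and 3.27). Their median was 5.41 TPM in mESCs, against 46.3 for the 8 with Ctr9. Nuclear genes of the respiratory chain had 15 of 99 at members and 6 at peaks with Ctr9, among them Cox5a (520 TPM), Atp5j2 (324) and Cox6b2, which was at 60.8 TPM in mESCs and 0.396 in NIH3T3 cells.

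Several lists had more genes at NELFA peaks with Ctr9 than at members. Of all 21951 protein-coding genes, 581 started at a NELFA peak with Ctr9. Cytosolic ribosomal protein genes had 9 of 83 at members and 57 with Ctr9, splicing factor genes 3 of 30 and 16, and replication-dependent histone genes 1 of 67 (Hist3h2ba, 0.219 TPM) and 37. The ribosomal and splicing shares at members, 10.8% and 10%, were still above the 5.36% of all genes. snoRNA host genes had 0 of 15 at members and 10 with Ctr9. Pluripotency genes had 1 of 25, Tbx3 (38.7 TPM in mESCs and 10.1 in NIH3T3 cells), and 8 with Ctr9. Zinc finger genes named Zfp had 24 of 394 at members (6.09%), led by Zfp106 (92.8 TPM) and Zfp207 (84.9), and 11 with Ctr9. The only fibroblast gene of 35 was Fn1, fibronectin, at 75.7 TPM in mESCs and 406 in NIH3T3 cells, with Ctr9 91 bp from the member. Of 75 lineage transcription factor genes and 39 Hox genes, 0 started at a NELFA peak of either set.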

How the data were processed

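Per the labels and the study's methods, the authors aligned ChIP-seq reads to mm10 with Bowtie2 2.3.5.1, removed blacklisted regions, and called peaks against input with MACS2 2.2.6 at a q of 0.01. The deposited peak lists, 1 library each, hold a score, a fold enrichment ratio, and −log10 p and q values, with no counts, so ChIP depth is unknown. The authors quantified RNA with kallisto 0.46.1, and the deposited tables hold estimated counts (26400407 in all for mESCs, 28849497 for NIH3T3) and TPM for 137767 transcripts. Of the 12 samples, 9 had a file used here, and 3 inputs had none used. A gene's TPM was that of its highest transcript, as in the study's methods.

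Overlap meant at least 1 shared bp, and distances counted the bases between peak edges. Gene starts came from GENCODE M21 and small RNAs from RefSeq, both on GRCm38, whose chromosome lengths contained every peak. Places were assigned in the order of the place plot, from protein-coding gene start to elsewhere. Ratios were log2 with 1 added to each TPM. Shares have Clopper-Pearson and medians order-statistic 95% intervals, from Python 3.11.15 and SciPy 1.17.1, and the overlap code was tested on simulated intervals against bedtools 2.31.1. With 1 library per group there was no test.

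The members and gene lists were chosen with earlier results of these data known. Genes were named by rank: the 12 members of highest NELFA fold at protein-coding starts and 8 elsewhere, then by TPM, TPM ratio, distance to Ctr9, Ser5p and H3K27ac fold, and list membership, and some that the ranks named are not reported here. The snRNA class, the 300 bp limit, the letters searched, Terc, the tRNA genes and the promoters shown for Taf4 and Ddx54 were chosen after values were seen. Alternatives covered thresholds, windows, pseudocount and how TPM was summed.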

Additional observations from a re-analysis of the deposited data

How the results depend on the processing

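Of 27 alternatives to the 10 main values, 15 stayed within the 95% interval of the value reported and 12 did not, and the cause was not tested beyond what each setting does. The share of NELFA peaks without Ctr9 was 47.2% when no Ctr9 peak could lie within 500 bp and 68.7% when only the NELFA summit had to be free of Ctr9. The fold enrichment had a mean of 5.20. The share at protein-coding starts was 83.4% within 500 bp and 93.0% for the start of any protein-coding transcript. The median distance to Ctr9 peaks of −log10 q of at least 5 was 8899 bp. The share with RNAPII Ser5p was 36.2% for Ser5p peaks of −log10 q of at least 5 and 38.1% for members with no Ctr9 within 500 bp, and the share with H3K27ac within 500 bp was 90.3%. Summing TPM over transcripts gave a median of 39.1 TPM. Ctr9 in the gene was found at 79.5% with 1 kb on each side and at 82.8% for Ctr9 peaks of −log10 q of at least 5. With no Ctr9 peak allowed within 500 bp, NELFA peaks without Ctr9 were no longer the larger set, at 47.2% against 56.9% as reported. The median log2 ratio of mESC to NIH3T3 TPM stayed positive in its alternatives, from 0.24 to 0.31. The other main values describe 1 set and have no direction to turn. No paired analysis was possible because each group had 1 library. The ChIP depth reached is not known, which limits every statement on a missing peak.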

Other observations

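Of the 1126 members, 1 lay on an unplaced sequence, with a NELFA fold of 1.91, the lowest among members, beside a Ser5p fold of 2.37 and an H3K27ac fold of 2.63. By chromosome, the members ranged from 0 on Y and 9 on X to 110 on chromosome 11. These counts were not set against all NELFA peaks or genes of each chromosome, so they show neither an excess nor a lack. Genes at members that also overlapped a NIH3T3 Ctr9 peak had a median log2 ratio of mESC to NIH3T3 TPM of 0.03 (-0.04 to 0.13, 253 genes), and those that did not had 0.36 (0.28 to 0.43, 927 genes). Genes at members with H3K27ac had a median of 25.4 mESC TPM (23.2 to 27.9), and those without it 16.6 (11.5 to 19.8). The most expressed genes at members with no Ctr9 peak anywhere in the gene region, chosen after their values were seen, were Pdia3, a protein folding enzyme of the endoplasmic reticulum, at 227 TPM in mESCs and 404 in NIH3T3 cells, and Dcaf13 at 66.3 and 68.9.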
